A study of Homo sapiens
Mus musculus and Homo sapiens with 2 samples.

Results

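SNAI1, SNAI2, ZEB1, ZEB2, TGFB1, TGFB2 and TGFBR1 were followed here in A549, a human lung adenocarcinoma line, during exposure to dexamethasone, a synthetic glucocorticoid. The 7 genes were taken by symbol, 1 gene identifier each, from the 43167 genes of the A549 annotation. They comprise 4 transcription factors of the epithelial-mesenchymal transition (EMT), 2 transforming growth factor beta (TGF-beta) ligands and 1 TGF-beta receptor, so that they are components of the pathway rather than a list of its targets. Separate lists of target, SMAD, epithelial and mesenchymal genes are described after them.

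The measurements came from sci-fate, a single-cell RNA assay. Cells are fed 4-thiouridine (S4U), a uridine analog taken up into RNA during transcription, and an iodoacetamide step then makes S4U positions read as base changes, so that molecules made during the labelling window can be counted apart. A549 cultures had dexamethasone for 0, 2, 4, 6, 8 or 10 h, at a dose that the protocol gives as 100 nM and another label as 101 nM. A second sample was a mixture of HEK293T, from human embryonic kidney, and NIH/3T3, mouse fibroblasts. All A549 cultures, the 0 h culture included, received 200 µM S4U for the last 2 h before harvest, and the protocol gives control cells the same volume of ethanol. Per the protocol the mixture lines had 200 µM S4U for 6 h, and the cell annotation divides their cells into 4 groups, with or without S4U and with or without iodoacetamide. The mixture's own label also lists dexamethasone, while the protocol names it for A549 only, so the mixture is taken as unexposed and this is not certain. A549 is 1 cancer line without a stated genetic change here. The labels name no replicate cultures, so each time was taken as 1 culture.

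Whole RNA below means all counts of a gene, new RNA the counts called newly synthesised by the authors, and pre-existing RNA the whole minus the new counts. Levels are in CPM, the counts of a gene per 1000000 TMM-scaled counts of that kind of RNA, after counts were summed over the cells of each culture. The 6 cultures held 1045 to 1446 cells, 7404 in all, with 28870594 to 43084614 whole and 5865326 to 9718958 new counts. New counts made up between 20.3% and 22.6% of all counts in every culture. Summed over 12 A549 epithelial markers, the whole level was 24521 to 31431 CPM, lowest at 0 h. It was 9.06 to 17.1 CPM for 10 fibroblast markers, 7.81 to 11.2 CPM for 6 immune markers and 1.45 to 2.11 CPM for 4 endothelial markers, and no marker in the file was at 0 counts over all cells. Pooled over the 6 cultures, the epithelial markers KRT8 and KRT7 were at 3818 and 4059 CPM. The adhesion genes EPCAM and CDH1, also epithelial markers, were at 4.78 and 20.9 CPM. These marker levels, unlike the others, are per 1000000 whole counts without TMM scaling.

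TGF-beta ligands are secreted in a latent form and, once activated, bind a type II receptor that recruits and phosphorylates the type I receptor, encoded by TGFBR1. The type I receptor phosphorylates SMAD2 and SMAD3, which enter the nucleus with SMAD4 and regulate target genes. SNAIL proteins (SNAI1 and SNAI2) and ZEB proteins (ZEB1 and ZEB2) are zinc-finger repressors of epithelial genes such as CDH1, are induced by TGF-beta in many epithelial cells, and drive EMT, in which cells lose junctions and gain motility. In lung epithelium the pathway is known for its part in fibrosis and tumour spread, and A549 is a common model of TGF-beta-induced EMT.

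During dexamethasone treatment, new RNA of the receptor TGFBR1 rose and new RNA of the ligand TGFB2 fell. Averaged over the 5 treated cultures, the log2 change against 0 h was 1.25 ± 0.16 (SE) for TGFBR1 and −1.11 ± 0.23 for TGFB2. The repressor SNAI2 had 6 new counts at 0 h and 25 to 79 in treated cultures, a fitted log2 difference of 2.95 ± 0.61. It passed the filter on low counts only through the treated cultures, where it is high, so its call is given as a description. The other 4 members did not pass the test in new RNA, although ZEB2 fell along the treated times after a high value at 2 h. These are comparisons of 1 culture at 0 h with 5 treated cultures in edgeR's quasi-likelihood test, with Benjamini-Hochberg adjustment over all genes. A gene's own spread comes only from the treated cultures, time course included, and edgeR moderates it toward the spread of other genes. The single 0 h culture is taken to vary as the treated ones do. In new RNA, 6.00% of the 17507 genes tested passed an adjusted p of 0.05, 3.82% upward and 2.18% downward, against TGFBR1 up and TGFB2 down among the 7 members, with SNAI2 also called up but entered through its high cultures.

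The receptor is taken first. TGFBR1 (ENSG00000106799.8), the type I receptor kinase, had new levels of 66.2 CPM at 0 h and 166, 184, 158, 145 and 138 CPM at 2, 4, 6, 8 and 10 h. Every treated culture was well above 0 h, and the highest was the 4 h culture. The fold over 0 h was 2.51 at 2 h (exact 95% interval 2.25 to 2.79), 2.78 at 4 h (2.497 to 3.10) and 2.08 at 10 h. Intervals of folds, and of new shares below, are exact binomial ones and cover counting error only. The call held in the edgeR test (adjusted p = 0.00225) and under every alternative tried.

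Pre-existing TGFBR1 RNA was slightly above its 0 h level at 2 h and further above it later. It stood at 61.2 CPM at 0 h and at 67.8, 108, 135, 153 and 139 CPM at 2 to 10 h. The 2 h culture had a fold of 1.108 (1.04 to 1.18), and the later cultures lay higher, up to a fold of 2.51 at 8 h. The change over all treated cultures was 0.98 ± 0.39 on the log2 scale and was not called (edgeR adjusted p = 0.623). Without the 2 h culture it was 1.13 and was called (edgeR adjusted p = 0.0136). In the 2 h culture the 2 h of S4U spanned the whole exposure. Apart from labelled molecules that went uncalled, pre-existing RNA there was made before dexamethasone, and the change over all treated cultures includes that culture. Pre-existing RNA of every gene can hold labelled molecules that went uncalled, in an unknown number.

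Whole TGFBR1 RNA carried both courses. Its levels were 62.4 CPM at 0 h and 87.7, 124, 139, 151 and 139 CPM at 2 to 10 h, with no treated culture as low as 0 h. The log2 change of 1.04 ± 0.26 was not called by edgeR (adjusted p = 0.155) and was called by DESeq2 (adjusted p = 0.000594). It was also called by edgeR without the 2 h culture, at 1.15 ± 0.11 (adjusted p = 0.000631). Among the treated cultures alone, whole TGFBR1 rose by 0.080 ± 0.020 log2 units per hour (edgeR adjusted p = 0.0301). That slope was not called by DESeq2 (adjusted p = 0.0572), without the 2 h culture (0.030 per hour, edgeR adjusted p = 0.257) or without the 8 h culture (0.072 per hour, edgeR adjusted p = 0.100). New TGFBR1 RNA had a slope of −0.045 ± 0.013 per hour that was not called (edgeR adjusted p = 0.0697), and without the 2 h culture the slope was −0.069 and was called (edgeR adjusted p = 0.00403).

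**Figure D1:**
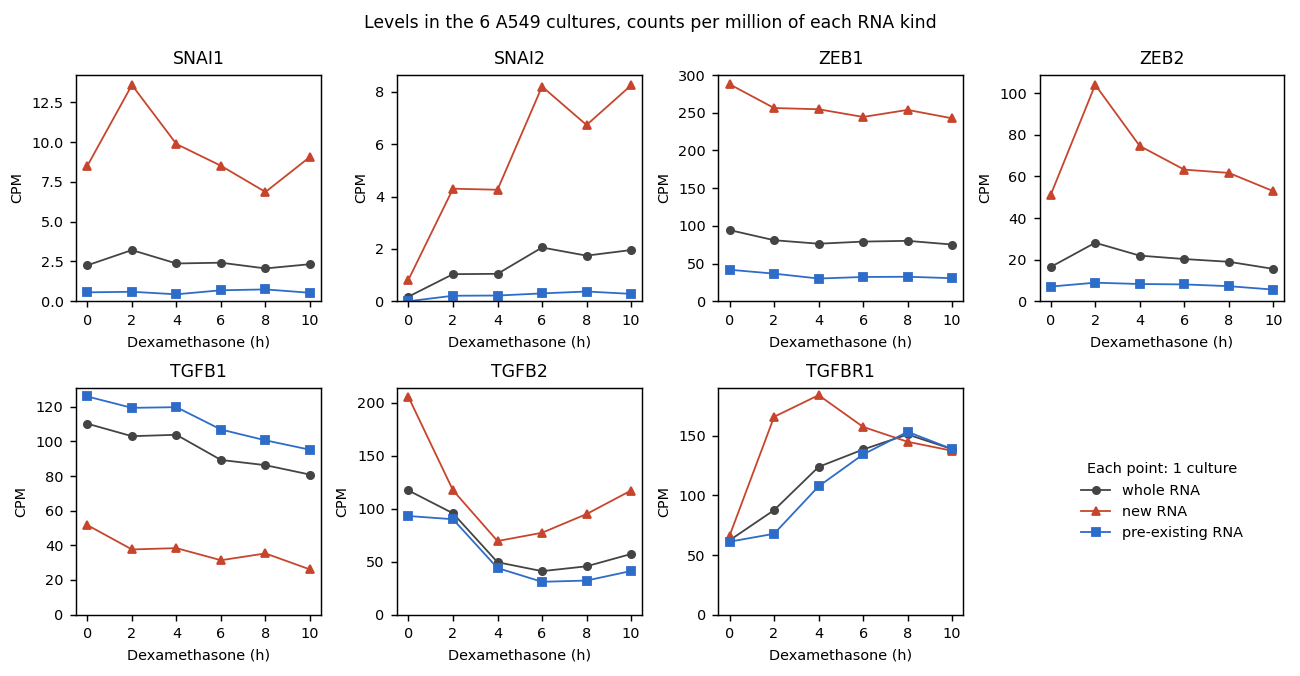
Whole, new and pre-existing RNA of the 7 genes in each of the 6 A549 cultures, in CPM of that kind of RNA (vertical axis) against hours of dexamethasone (horizontal axis), 1 point per culture. New TGFBR1 RNA runs from 66.2 at 0 h to 184 at 4 h, new TGFB2 RNA from 205 at 0 h to 69.4 at 4 h, and the levels of new and pre-existing TGFB2 reach their lowest values at 4 h and 6 h.

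The ligands follow. TGFB2 (ENSG00000092969.7), a ligand that depends on the co-receptor betaglycan for high-affinity binding, had new levels of 205 CPM at 0 h and 117, 69.4, 77.2, 94.9 and 117 CPM at 2 to 10 h. Every treated culture lay below 0 h, with the lowest at 4 h and with the 2 h and 10 h cultures at about equal levels. The fold was 0.571 (0.524 to 0.622) at 2 h, 0.338 (0.302 to 0.377) at 4 h and 0.570 (0.526 to 0.618) at 10 h. The fall was called (log2 change −1.11 ± 0.23, edgeR adjusted p = 0.0229). The call was lost without the 6 h culture, at −1.04 (edgeR adjusted p = 0.0595), and stood just over the threshold without the 8 h culture, at −1.10 (edgeR adjusted p = 0.05003).

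At 2 h, in the culture labelled over its whole exposure, pre-existing TGFB2 RNA was near its 0 h level. It stood at 93.0 CPM at 0 h and at 89.96, 43.9, 30.9, 32.1 and 41.1 CPM at 2 to 10 h. The fold at 2 h was 0.967 (0.915 to 1.02), an interval that holds 1, while the 4 later cultures lay between 0.332 and 0.472 of the 0 h level. Over all treated cultures the log2 change of −0.97 ± 0.49 was not called (edgeR adjusted p = 0.636), and without the 2 h culture it was −1.33 and was called (edgeR adjusted p = 0.00682). Whole TGFB2 RNA had levels of 117 CPM at 0 h and 95.6, 49.4, 41.0, 45.5 and 57.1 CPM at 2 to 10 h. Its log2 change was −1.02 ± 0.37 (edgeR adjusted p = 0.309), and without the 2 h culture −1.28 ± 0.14, which was called (edgeR adjusted p = 0.00118).

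New TGFB2 RNA did not follow a straight line in time. Its slope over all 5 treated cultures was 0.017 ± 0.031 log2 units per hour (edgeR adjusted p = 0.814). From 4 h on, without the 2 h culture, it rose by 0.131 ± 0.016 per hour (edgeR adjusted p = 4.56e-05), and the 10 h culture was still below 0 h. The slope of whole TGFB2 was −0.086 ± 0.040 (edgeR adjusted p = 0.219), and without the 10 h culture it was −0.180 and was called (edgeR adjusted p = 0.0272).

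TGFB1 (ENSG00000105329.5), the ligand most studied in fibrosis, had new levels of 51.7 CPM at 0 h and 37.6, 38.4, 31.4, 35.3 and 26.1 CPM at 2 to 10 h. Every treated culture lay below 0 h, and the lowest was the 10 h culture, at a fold of 0.504. Its new log2 change of −0.62 ± 0.18 missed the threshold (edgeR adjusted p = 0.0895) and passed without the 2 h culture, at −0.67 (edgeR adjusted p = 0.0289). Whole TGFB1 levels were 110 CPM at 0 h and 103, 104, 89.3, 86.3 and 80.8 CPM at 2 to 10 h, so that the cultures fell away with time and all treated ones lay below 0 h. Whole TGFB1 fell over the treated times by 0.048 ± 0.0085 log2 units per hour (edgeR adjusted p = 0.00625), a call kept in all alternatives. Its whole change against 0 h was −0.25 ± 0.14 (edgeR adjusted p = 0.502). Pre-existing TGFB1 went from 126 CPM at 0 h to 95.2 CPM at 10 h, with a change of −0.22 ± 0.13 (edgeR adjusted p = 0.663).

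The SNAIL factors were the members with the fewest counts. SNAI2 (ENSG00000019549.4), also called SLUG, had 6 whole counts in the whole 0 h culture and 37, 30, 89, 60 and 79 counts at 2 to 10 h. In whole levels this was 0.176 CPM at 0 h and 1.04, 1.05, 2.05, 1.74 and 1.96 CPM afterwards. Every treated culture was above 0 h, and the 3 later ones were above the 2 earlier ones. The pooled fold of the treated cultures over 0 h was 9.18 in whole RNA, with an exact 95% interval of 4.17 to 25.2 that shows how little the 6 counts fix its size.

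Of all 301 SNAI2 counts, 261 were new. New SNAI2 counts were 6 at 0 h and 31, 25, 79, 50 and 70 at 2 to 10 h, which gave 0.824, 4.30, 4.26, 8.21, 6.74 and 8.25 CPM. The pooled fold was 8.01 (3.63 to 22.0). SNAI2 entered the filtered tests through its treated cultures alone, since its 0 h culture was below the minimum count of 10, and a gene that enters in this way had to differ. Its fitted difference in new RNA (edgeR adjusted p = 0.0210) is therefore no independent support for a rise. Without any filter on low counts the new difference was 2.94 (edgeR adjusted p = 0.000283). In whole RNA the fitted difference was 3.15 ± 0.64, with an adjusted p of 0.000792 in DESeq2 and 0.0845 in edgeR. Pre-existing SNAI2 counts were 0 at 0 h, which allows a level of up to 0.112 CPM, and 6, 5, 10, 10 and 9 at 2 to 10 h. Pooled over treated cultures, 40 counts, the pre-existing level was 2.49-fold the level of the 3 counts that the 0 h culture allows. That ratio leaves out the counting error of the 40 counts and is no lower bound. The exact interval of the pooled fold over 0 h starts at 1.93 and has no upper limit.

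SNAI1 (ENSG00000124216.3), SNAIL itself, had new counts of 62, 98, 58, 82, 51 and 77 from 0 to 10 h, or 8.52, 13.6, 9.89, 8.52, 6.87 and 9.08 CPM. The 2 h culture was the highest, at a fold of 1.60 (1.15 to 2.23), and the other treated cultures lay on both sides of 0 h. The change in new RNA was 0.16 ± 0.32 (edgeR adjusted p = 0.856) and in whole RNA 0.13 ± 0.25 (edgeR adjusted p = 0.876).

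**Figure D2:**
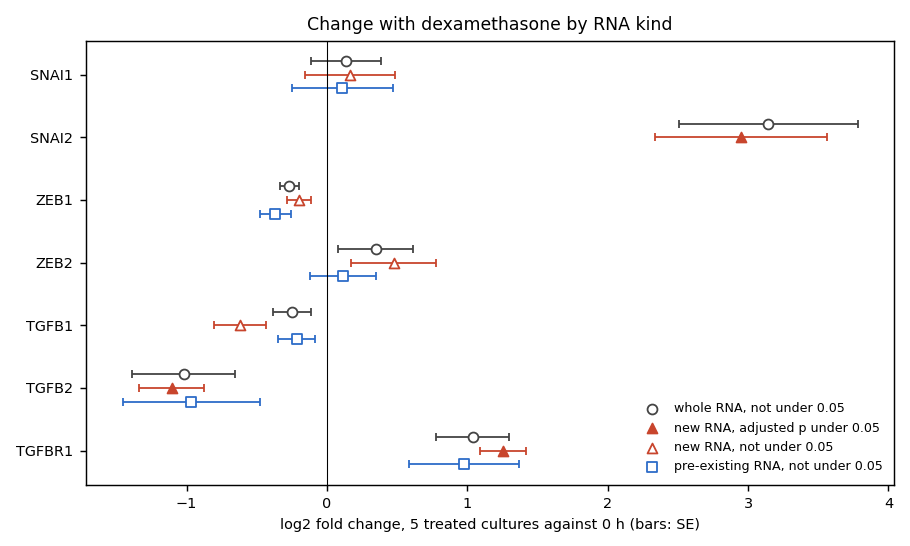
Fitted log2 change of each gene over the 5 treated A549 cultures against 0 h (horizontal axis), for whole, new and pre-existing RNA, with bars for the SE; filled symbols have an edgeR adjusted p under 0.05, and pre-existing SNAI2 is not drawn because its 0 h culture had 0 counts. The filled symbols are new RNA of SNAI2 at 2.95, TGFBR1 at 1.25 and TGFB2 at −1.11. SNAI2 passed the filter on low counts only through its treated cultures, where it is high, so its filled symbol is a description.

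The ZEB factors were better covered. ZEB2 (ENSG00000169554.12) had new levels of 51.1 CPM at 0 h and 104, 74.7, 63.3, 61.7 and 52.9 CPM at 2 to 10 h. The highest value came at 2 h, at a fold of 2.04 (1.80 to 2.31), and the level went down at each later time to a fold of 1.04 (0.901 to 1.19) at 10 h. Whole ZEB2 levels had the same order among treated cultures, with 16.5 CPM at 0 h and 28.1, 21.9, 20.3, 19.0 and 15.6 CPM at 2 to 10 h, the last below 0 h. New ZEB2 fell over the treated times by 0.114 ± 0.016 log2 units per hour (edgeR adjusted p = 0.00176), and whole ZEB2 by 0.097 ± 0.013 per hour (edgeR adjusted p = 0.00162). Both slopes stayed called under every alternative, the 2 h culture left out included, where the new slope was −0.076 (edgeR adjusted p = 0.0161). Averaged over treated times, the change against 0 h was 0.48 ± 0.30 in new RNA (edgeR adjusted p = 0.470) and 0.35 ± 0.27 in whole RNA (edgeR adjusted p = 0.643). Pre-existing ZEB2 stayed between 5.60 and 8.93 CPM in the 6 cultures, with 7.05 CPM at 0 h.

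ZEB1 (ENSG00000148516.17) is a ZEB factor linked to a double-negative loop with the miR-200 family. It had new levels of 288 CPM at 0 h and 256, 255, 244, 254 and 243 CPM at 2 to 10 h. All treated cultures lay slightly below 0 h and close to each other. The change in new RNA was −0.20 ± 0.085 (edgeR adjusted p = 0.250). Whole ZEB1 levels were 94.4 CPM at 0 h and between 75.2 and 80.9 CPM in treated cultures, a change of −0.27 ± 0.069 that was not called (edgeR adjusted p = 0.161) and was called without the 2 h culture (−0.28, edgeR adjusted p = 0.0486). Pre-existing ZEB1 levels were 41.8 CPM at 0 h and 36.6, 30.1, 32.2, 32.5 and 30.6 CPM at 2 to 10 h, with a change of −0.37 ± 0.11 (edgeR adjusted p = 0.620; without the 2 h culture −0.41 and 0.0364). Antisense transcripts overlap or adjoin both ZEB genes, and strand use in the counting is not stated in the sources used here. ZEB1-AS1 had 73 to 113 whole counts per culture against 2185 to 3427 for ZEB1, and ZEB2-AS1 had 1 count in all.

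In whole RNA, 0 of the 7 members were called against 0 h by edgeR, where 0.878% of 22894 genes were called (0.603% up, 0.275% down) and 2922 genes had an unadjusted p under 0.05. DESeq2, on the same filtered genes, called 557 genes up and 229 down, more than edgeR, and 2 members up, TGFBR1 and SNAI2. SNAI2 entered through its treated cultures alone, so its call is a description. In pre-existing RNA 0 members were called, against 0.116% of 20624 genes (0.0533% up, 0.0630% down), with 1647 genes at an unadjusted p under 0.05, and DESeq2 called 0 of the 5 members to which it gave an adjusted p. Along the treated times, 12.6% of 21493 genes had a called slope in whole RNA (6.10% up, 6.53% down), and among the members TGFBR1 rose and ZEB2 and TGFB1 fell. In new RNA 7.70% of 16366 genes had a called slope (3.55% up, 4.15% down), and ZEB2 was the member among them.

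The share of a gene's counts that were new separated the members into groups. Over all A549 cells the new share was 80.8% for SNAI1 (exact 95% interval 77.1 to 84.0), 86.7% for SNAI2 (82.3 to 90.3), 67.0% for ZEB1 (66.3 to 67.7) and 70.6% for ZEB2 (69.3 to 72.0). It was 35.9% for TGFB2, 25.4% for TGFBR1 and 8.08% for TGFB1 (7.71 to 8.46). The 4 EMT factors therefore had the highest shares, each above the ligands and the receptor in the pooled cells.

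Against all 13177 genes with at least 500 whole counts, whose median new share was 27.1%, SNAI1 lay at the 99.4th, ZEB2 at the 95.6th and ZEB1 at the 93.4th percentile. TGFB2 lay at the 62.7th percentile, TGFBR1 at the 47.3rd and TGFB1 at the 11.5th. SNAI2 had too few counts for that ranking. The share depends on how fast a transcript is made and lost and on how many of its molecules were called new, which these data do not separate.

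Within TGFBR1 and TGFB2 the new share was uneven over time, with intervals that leave out the spread between cultures. For TGFBR1 it was 22.7% at 0 h (20.9 to 24.5), 38.2% at 2 h (36.5 to 39.9), and 30.4%, 25.3%, 20.7% and 20.8% at 4 to 10 h. The 2 h culture was thus the highest and the 8 h and 10 h cultures were near 0 h. For TGFB2 it was 37.5% at 0 h (35.9 to 39.0), 24.7% at 2 h (23.3 to 26.2), 28.8% at 4 h, and 41.9%, 44.9% and 43.1% at 6, 8 and 10 h, low first and high later. For TGFB1 the share was 10.0% at 0 h and 6.77% to 8.82% in treated cultures, all below 0 h.

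Whether the share changed over all treated cultures, relative to all genes, was tested as an interaction in edgeR. This called 0% of 16734 genes, with 958 at an unadjusted p under 0.05, and 0 of the 7 members. DESeq2 called 12 genes up and 8 down, and no member. TGFB1 had a difference of −0.41 ± 0.14 on the log2 scale (edgeR adjusted p = 0.753), TGFBR1 0.31 ± 0.43 (edgeR adjusted p = 0.972) and TGFB2 −0.059 ± 0.37 (edgeR adjusted p = 0.992). The courses of TGFBR1 and TGFB2 that went first one way and then the other are averaged in this test, and no test of a turn was made.

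**Figure D3:**
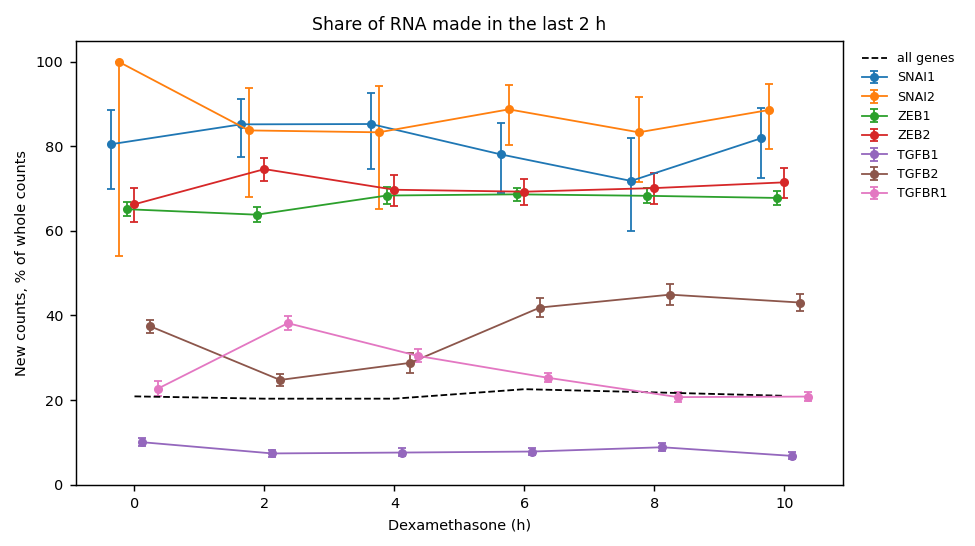
New counts as a percent of whole counts (vertical axis) for each gene in the 6 A549 cultures (horizontal axis: hours of dexamethasone), with exact 95% binomial intervals and a dashed line for all genes. TGFBR1 goes from 22.7% at 0 h to 38.2% at 2 h and 20.8% at 10 h, and TGFB2 from 37.5% to 24.7% and 43.1%.

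Counted per cell, TGFBR1 was detected in 86.1% of A549 cells, TGFB1 in 82.3%, ZEB1 in 78.0%, TGFB2 in 62.2% and ZEB2 in 29.0%. SNAI1 was detected in 5.83% and SNAI2 in 2.90% of cells. The same human genes gave a count in at most 0.223% of NIH/3T3 cells of the mixture library, which should lack them, at a median of 7488 counts per cell against 27080.5 in A549. For SNAI1 and SNAI2 that was 0 of 3132 NIH/3T3 cells, which allows a share of up to 0.0958%. Those cells held a median of only 30 to 38 human counts across the treatment groups. HEK293T cells, in the same library, gave SNAI1 in 0.599% and SNAI2 in 6.09% of cells. With so few human counts, the 0 sets no background for the A549 shares. With each cell thinned to 10000 counts, which left out 173 cells, TGFB2 was detected in 60.3% of cells at 0 h and in 50.5%, 32.3%, 27.4%, 31.6% and 33.9% at 2 to 10 h. TGFBR1 was detected in 44.1% of thinned cells at 0 h and in 53.2%, 66.1%, 67.6%, 71.0% and 68.4% afterwards. ZEB2 was detected in 12.6% at 0 h, 21.0% at 2 h and 10.7% at 10 h. So the cells with a count followed the summed levels in these 3 genes. Unthinned SNAI2 shares were 0.348% at 0 h and 2.11% to 4.56% in treated cultures.

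The mixture sample gave the members' new share in other lines and the rate of new calls without label. In HEK293T cells with S4U and iodoacetamide, ZEB1 was 86.3% new (825 of 956 counts), ZEB2 82.5%, TGFBR1 73.4%, TGFB2 83.9% (52 of 62 counts) and TGFB1 20.3% (37 of 182; 14.7 to 26.9). SNAI1 had 2 new of 16 counts there, and SNAI2 35 of 40. The HEK293T share over all genes was 54.7%. In HEK293T cells that had iodoacetamide but no S4U, the share was 1.24% over all genes and between 1.03% and 3.23% for those 6 members other than SNAI1. In NIH/3T3 cells with S4U and iodoacetamide, Snai1 was 64.0% new, Snai2 67.3%, Zeb1 53.6%, Zeb2 56.5%, Tgfbr1 53.4%, Tgfb2 50.0% (9 of 18 counts) and Tgfb1 38.1% (16 of 42 counts), with 33.1% over all genes. TGFB1 thus had the lowest share in A549, the lowest in HEK293T apart from SNAI1, and the lowest in NIH/3T3, where its few counts leave it within the interval of Tgfb2. Labelling times differ between the samples, so the shares are not compared across lines, and no A549 cells without S4U were used to set the background of A549.

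The other genes of the pathway were counted in new RNA against 0 h, where the median log2 change of all genes tested was 0.010 and 3.82% of genes were called up and 2.18% down. Over the 8 lists described here, 101 distinct genes were tested, of which 13 were called up and 10 down, TGFBR1 and TGFB2 among them. The lists were drawn up with earlier results of these data known, and some genes stand in more than 1 list. Among 12 tested ligand and activation genes, median −0.48, THBS1 (thrombospondin 1, an activator of latent TGF-beta) rose by 1.35 ± 0.30 (edgeR adjusted p = 0.0272), and TGFB2 and the latent-TGF-beta-binding gene LTBP4 fell, LTBP4 with a change of −0.92 ± 0.23 (edgeR adjusted p = 0.0498). Among 6 tested receptors and co-receptors, median 0.33, TGFBR1 rose together with TGFBR3, which encodes betaglycan and changed by 1.303 ± 0.15 (edgeR adjusted p = 0.00122). TGFBR3 also rose in whole RNA, by 1.22 (edgeR adjusted p = 0.0344). The type II receptor gene TGFBR2 was at 0.43 ± 0.11 (edgeR adjusted p = 0.0521), a value picked out after it was seen, like those of SMAD7, CDH1, VIM, CDH2 and FN1 below.

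Among 17 SMADs and their regulators, median −0.099, 1 gene rose and 3 fell (all genes 3.82% up and 2.18% down). NEDD4L, a ubiquitin ligase of the pathway, rose by 1.00 ± 0.23. PMEPA1, a pathway inhibitor and target, had a change of −1.22 ± 0.12 (edgeR adjusted p = 0.000545), SMAD3, a receptor-activated SMAD, one of −1.001 ± 0.19 (edgeR adjusted p = 0.0154), and TGIF1, a SMAD corepressor, one of −0.88 ± 0.14 (edgeR adjusted p = 0.00564). The inhibitory SMAD7 was at −0.032 (edgeR adjusted p = 0.920).

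Of 25 TGF-beta target genes tested, median −0.26, 2 rose and 3 fell (all genes 3.82% up and 2.18% down). CDKN1A, the cell cycle inhibitor p21, rose by 1.09 ± 0.097 and CTGF, a matricellular protein, by 1.63 ± 0.39. The edgeR adjusted p was 0.000266 for CDKN1A and 0.0384 for CTGF. LMCD1, with a change of −0.97 ± 0.17, fell together with PMEPA1 and TGIF1, which are in this list too.

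Of the 8 other EMT transcription factors tested, median −0.35, 1 rose and 1 fell (all genes 3.82% up and 2.18% down). HMGA2 rose by 0.71 ± 0.15 and TWIST2 had a change of −0.69 ± 0.16. Of 9 transcription and splicing factors of the epithelial state, median 0.23, 2 rose and 1 fell, beside the same shares of all genes. KLF4 rose by 1.55 ± 0.20 (edgeR adjusted p = 0.00201) and KLF5 by 0.69 ± 0.14, and FOXA1, a lung pioneer factor, had a change of −1.13 ± 0.20.

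Of 23 epithelial junction and adhesion genes, median 0.23, 3 rose and 2 fell (all genes 3.82% up and 2.18% down). The keratins KRT8 and KRT18 rose by 1.37 ± 0.26 and 1.17 ± 0.29, and the polarity gene LLGL2 by 0.61 ± 0.11. The claudin CLDN2 had a change of −2.44 ± 0.52 and the keratin KRT19 one of −0.85 ± 0.20. CDH1 (E-cadherin), a target that SNAIL and ZEB factors repress, had new levels of 14.0, 10.8, 16.4, 19.0, 26.0 and 26.2 CPM from 0 to 10 h and a change of 0.50 ± 0.41 (edgeR adjusted p = 0.597). Of 11 mesenchymal genes, median −0.038, 1 rose and none fell: the integrin ITGA5, named after its value was seen, rose by 1.33 ± 0.15 (edgeR adjusted p = 0.00111). The matrix cross-linking enzyme gene LOX was at 2.96 ± 1.297 (edgeR adjusted p = 0.267). The collagen COL3A1 was at 1.42 ± 1.87 (edgeR adjusted p = 0.765), an SE larger than the change. Vimentin, VIM, was at −0.33 ± 0.10 (edgeR adjusted p = 0.104), N-cadherin, CDH2, at −0.038 and fibronectin, FN1, at 0.36 ± 0.27.

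**Figure D4:**
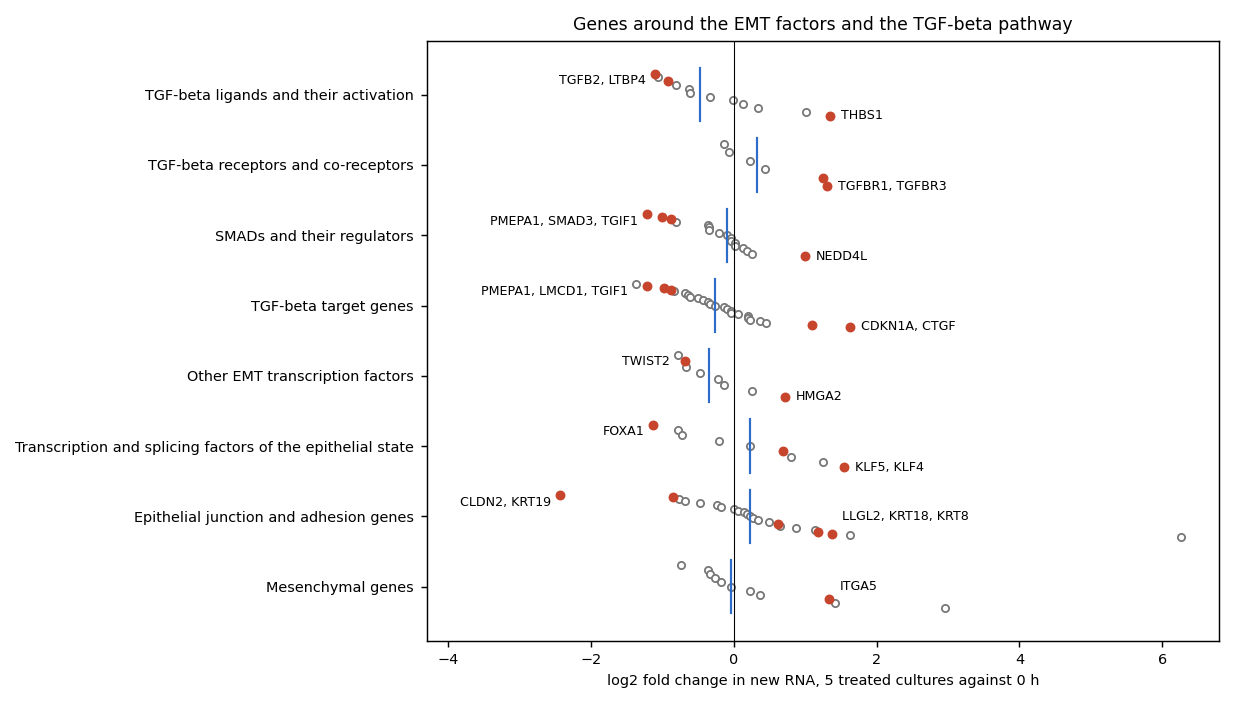
Log2 change in new RNA, dexamethasone against 0 h (horizontal axis), of every tested gene in 8 lists (1 row each); filled red points have an edgeR adjusted p under 0.05, open points do not, and the blue line is the list median. Medians run from −0.48 for ligands and activation to 0.33 for receptors, and the open point farthest right is CLDN7, whose 0 h culture had 0 new counts, so that its fitted value has no firm size.

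Some of these calls lay near the threshold. Of 22 named list genes called in new RNA, 13 kept their call whichever treated culture was left out and 9 lost it without the 6 h culture (CLDN2, CTGF, HMGA2, KRT18, KRT19, LTBP4, NEDD4L, THBS1 and TWIST2), with edgeR adjusted p from 0.0672 to 0.1205. Of these 9, 6 also lost it without the 4 h culture (adjusted p up to 0.0867), 7 without the 8 h culture (up to 0.0814) and 5 without the 10 h culture (up to 0.0758). KRT19 also lost its call in DESeq2 (adjusted p = 0.0756). The A549 markers moved as well: of 11 tested, KRT8, KRT18 and KRT7 rose and AKR1B10 fell (all genes 3.82% up and 2.18% down). Of the fibroblast, immune and endothelial markers that could be tested none passed. Their log2 changes were −0.26 ± 0.74 for COL1A1, 1.42 ± 1.87 for COL3A1, −1.09 ± 0.36 for CD68 and 0.58 ± 0.97 for VWF. The part of these marker changes in the members' results was not tested. In whole RNA 4 of 119 distinct list genes were called against 0 h, where 0.878% of all genes were: TGFBR3, HMGA2 and KLF4 rose and TGIF1 fell.

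The genes whose new level ran most like that of a member were taken by Pearson's r of log2 CPM over the 6 cultures, from 10380 genes with at least 50 new counts in each. SNAI2 had too few counts to be compared. For TGFBR1 these were SIK1 (r = 0.999), ANKRD11 (r = 0.997) and WWTR1 (r = 0.997), and for TGFB2 SLC44A1 (r = 0.994), L3HYPDH (r = 0.993) and ATP2B1 (r = 0.993). For ZEB2 they were MTATP8P1 (r = 0.998), CHD1L (r = 0.996) and GALNT1 (r = 0.994), and for ZEB1 HNRNPL (r = 0.995), TTL (r = 0.994) and FLVCR1 (r = 0.993). For SNAI1 the closest was TRMT44 (r = 0.988) and for TGFB1 PHIP (r = 0.990). These r values are descriptions: they are the highest of many over 6 points that share their libraries, and carry no test.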

How the data were processed

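Per the submitters' processing notes, the tools were STAR 2.5.2b, Picard 1.105, Trim Galore 0.4.1 and SAMtools 1.3, and the builds hg19 and mm10. The authors deposited unnormalized counts for each gene in each cell, whole and newly synthesised. The collapse of duplicates and the calling of new molecules are not described in these sources. A fraction that the authors deposited per mixture cell was not used. The deposited annotation gives each cell's time, and the authors' doublet score reached 0.191 at most; no cell was left out on it. No cell name was shared by both samples, and new never exceeded whole counts.

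Counts were summed per culture. edgeR 4.0.16 (R 4.3.3) fitted treated against 0 h with TMM scaling and filterByExpr (minimum count 10), 4 residual degrees of freedom, and a slope over the 5 treated times with 3. New against pre-existing RNA was an interaction with culture as a term. The scripts were tested on simulated data. P-values measure the spread between cultures, moderated for each gene toward that of all genes, which the residual degrees of freedom do not count. The cultures carry no replicate labels and were taken as 1 per time. In summed cultures, fewer cells with a gene and less RNA per cell cannot be told apart except through the shares of cells given. CPM levels compare cultures for a gene, not genes with each other. Alternatives were RLE scaling, DESeq2 1.42.0, no filter on low counts, cells under 10000 counts left out, and each treated culture left out. Members and lists were chosen with earlier results of these data known. Named list genes were, per list, up to 4 called rises and 4 called falls in new RNA, of largest size, or the 2 with the largest change where fewer than 2 were called. 1 item of the target and mesenchymal lists is not reported here and is left out of their counts and medians. No sequence or genome position is printed.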

Additional observations from a re-analysis of the deposited data

Results flagged for a closer look

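Among 28 sets of values over the 5 treated cultures (7 genes, with whole, new and pre-existing level and new share), 2 had a culture that stood apart by Dixon's criterion. For 5 draws from 1 distribution the criterion flags about 1 in 20 sets by chance. These values are ordered times and the sets of a gene share counts, so that rate need not hold here. The pre-existing TGFB2 level at 2 h was 89.96 CPM, above the other treated cultures, with a gap of 0.780 of the range. That culture was labelled over its whole exposure, so its pre-existing RNA, uncalled molecules apart, was made before dexamethasone. The ZEB1 new share at 2 h was 63.8%, below the other treated cultures, with a gap of 0.823 of the range.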

How the results depend on the processing

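With each time taken as 1 culture, leaving out a treated culture removes a time, and the 0 h culture could not be left out. RLE scaling and leaving out cells under 10000 counts changed no member's call. Without a filter on low counts, whole RNA had 302 genes up and 149 down, with 2 members up, against 138 and 63 in the edgeR test; new RNA had 614 down against 381, with 2 members down; pre-existing RNA had 37 up and 24 down against 11 and 13; new against pre-existing had 131 up and 79 down; and the new slope had 2 members down. DESeq2 gave 557 up and 229 down in whole RNA with 2 members up, 136 and 47 in pre-existing RNA, 12 and 8 in new against pre-existing, and a whole slope with 0 members up. Leaving out each treated culture gave 57 to 933 genes up and 18 to 669 down in whole RNA (members 0 to 2 each way), 428 to 1176 and 201 to 846 in new RNA (members 2 up, 0 to 2 down), 0 to 463 and 5 to 304 in pre-existing RNA (members 0 to 1 up, 0 to 2 down) and 0 to 2 up in new against pre-existing. For slopes it gave 713 to 1265 up and 701 to 1304 down in whole RNA (members 0 to 2 up, 2 to 3 down) and 225 to 538 up and 281 to 630 down in new RNA (members 0 to 1 up, 1 to 2 down). The cause was not tested. Counts of members up include SNAI2 wherever it was called, which under the filter on low counts is a description only.

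Some values turned sign with a culture left out, without a call on the turned side. Their ranges over the cultures left out were −0.58 to 0.018 for COL1A1 in new RNA, −0.12 (and −0.056) to 0.22 for SNAI1 and −0.18 to 0.14 (and 0.041) for TGFB2 in new against pre-existing RNA, −0.18 to 0.042 for TGFB2 and −0.011 to 0.00070 for ZEB1 in the whole slope, and −0.044 (and −0.0039) to 0.131 for TGFB2 in the new slope. No paired analysis was possible because the labels give no replicate numbers and each time was taken as 1 culture. SNAI1 and SNAI2 had the fewest counts among the members, 6 to 115 whole counts per culture.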
